A study of Mus musculus with 6 samples.

Results

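The sites described here are intergenic summits of p53 binding that were listed in cells with wild-type p53 and had no counterpart in cells with the p53 form named 3KR. They were chosen by presence and absence in the authors' 2 lists of ChIP-seq summits. A WT summit on chromosomes 1 to 19, X or Y was taken if no 3KR summit lay within 200 bp, if it lay outside every protein-coding RefSeq gene, and if it was more than 1 kb from the end of any such gene. Of 1668 WT summits, 1636 lay on those chromosomes, 800 of them were intergenic, and 398 met the whole rule. On those chromosomes 776 of 1636 WT summits had no 3KR partner (47.4%), and among the intergenic ones 398 of 800 did (49.8%). These shares are set by the rule itself.

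The study measured p53 on chromatin in basal progenitor cells of mouse epidermis, sorted as EpCAM-positive with high alpha-6 integrin from 8-week-old animals. The 2 groups were p53WT and p533KR mice, with 3 libraries each and 6 in all, and in both the medium used to digest the skin held 25 µM Nutlin-3a, which stops MDM2 from degrading p53. From general knowledge of this allele, 3KR carries arginine in place of lysines of the DNA-binding domain that are acetylated in the wild-type protein. Each genotype is represented by 1 combined list, with 6753 summits for 3KR, so there is no spread between animals, no depth per library and no test between genotypes. A site missing from the 3KR list is one without a listed summit, which does not show that p53 3KR was absent from it. The summit names of the 3KR list carry the word Doxo and those of the WT list a run label ending in 1, which the labels do not explain. Whether genotype alone separates the lists cannot be told apart from those differences. RNA was not measured, so markers of the sorted cells could not be checked.

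p53 binds DNA as a tetramer at pairs of half-sites, each with a C and a G around a short A/T core and purines and pyrimidines on the outer sides. Many such sites lie far from promoters, where they can act as enhancers or start non-coding transcripts. In epidermis the related factor p63, which maintains basal keratinocytes, recognises nearly the same sequence. Bound distal sites may thus lie near genes of either programme, which was not tested here.

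Sequence could be read at 10 of the 398 sites, those where 100 bp to either side of the summit met a RefSeq promoter window of a non-coding gene. These windows run from 250 bases before to 50 bases after a gene's start (GRCm38.p6, the assembly of mm10). The 5 shown are the 3 with a p53 half-site, the 1 with the highest score (Gm33122, 21.04), and 1 beside a gene of the skin barrier. Capitals mark a p53 half-site of 10 bases matched without mismatch, a consensus that reads the same on both strands, or in Gm40804 the AP-1 motif TGANTCA, which is likewise its own reverse complement. In Gm33122 neither motif was found.
Gm51651 (chr1:155056274-155056573, plus strand): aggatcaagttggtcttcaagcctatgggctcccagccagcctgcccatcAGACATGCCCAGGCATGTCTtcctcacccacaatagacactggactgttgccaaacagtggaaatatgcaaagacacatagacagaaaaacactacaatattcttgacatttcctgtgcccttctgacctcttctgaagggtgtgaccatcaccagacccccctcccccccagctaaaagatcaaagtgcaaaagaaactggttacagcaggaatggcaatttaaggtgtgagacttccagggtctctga
Gm15408 (chr5:149006712-149007011, plus strand): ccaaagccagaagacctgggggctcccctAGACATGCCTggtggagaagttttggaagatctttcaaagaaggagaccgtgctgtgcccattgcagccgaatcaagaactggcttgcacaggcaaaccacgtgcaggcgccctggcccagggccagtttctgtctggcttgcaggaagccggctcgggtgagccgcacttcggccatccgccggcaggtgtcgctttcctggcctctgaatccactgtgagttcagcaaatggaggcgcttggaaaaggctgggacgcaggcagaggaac
Gm30713 (chr8:125385634-125385933, plus strand): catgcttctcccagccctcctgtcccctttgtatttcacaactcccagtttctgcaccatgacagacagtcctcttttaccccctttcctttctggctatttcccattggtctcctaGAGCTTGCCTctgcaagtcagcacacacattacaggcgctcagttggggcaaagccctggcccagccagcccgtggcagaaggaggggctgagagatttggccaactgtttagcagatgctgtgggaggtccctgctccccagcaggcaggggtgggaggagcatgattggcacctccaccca
Gm33122 (chr7:129651809-129652108, minus strand): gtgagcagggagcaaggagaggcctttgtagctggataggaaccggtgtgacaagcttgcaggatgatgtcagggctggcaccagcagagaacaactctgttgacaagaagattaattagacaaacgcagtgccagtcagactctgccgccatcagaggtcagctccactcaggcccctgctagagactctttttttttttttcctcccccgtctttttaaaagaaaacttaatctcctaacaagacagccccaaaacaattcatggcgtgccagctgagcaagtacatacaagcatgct
Gm40804 (chr10:127925187-127925486, minus strand): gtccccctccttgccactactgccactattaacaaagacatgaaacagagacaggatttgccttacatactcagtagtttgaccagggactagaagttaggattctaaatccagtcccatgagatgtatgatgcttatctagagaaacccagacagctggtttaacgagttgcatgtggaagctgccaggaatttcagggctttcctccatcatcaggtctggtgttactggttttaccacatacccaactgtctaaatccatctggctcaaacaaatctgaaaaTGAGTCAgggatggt

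The window of Gm51651, a non-coding gene, holds a complete p53 site, with 2 half-sites side by side at bases 51 to 70. The WT summit was at base 29 of that window, 22 bases from the nearer half-site. The summit lay 40.1 kb from Ier5, an immediate early gene. Its score, the −log10 p or q value that the authors' peak caller gave it, was 12.1 (rank 587 of the WT list), and the nearest 3KR summit was 18.7 kb away. A complete site, with at most 13 bases between half-sites, was present in 24 of 32851 RefSeq promoter windows (0.0731%). Among summits on these chromosomes that met a window, 1 of 142 WT summits had it, which is this one, and 0 of 1573 3KR summits.

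Single half-sites stood in the windows of Gm15408, 83 bases from a summit with score 6.76, and of Gm30713, 15 bases from a summit with score 5.22. The same site near Gm15408 also lies in the opposite window of Gm15411, and the summit is 39.9 kb from Hmgb1, a chromatin protein gene. In all, 3 of the 10 WT-only intergenic sites that met a window had a half-site there, against 8.36% of all promoter windows. Some sites met several windows, so this sets sites beside windows. The count was 3 of 11 for shared intergenic sites and 7 of 53 for 3KR-only intergenic sites. With so few windows these counts describe the sites shown and no more. The AP-1 motif was found at 2 of the 10 sites and in 7.81% of all windows. Other intergenic sites had it at a similar share, 3 of 11 shared and 12 of 53 3KR-only sites.

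The Cdkn1a locus held the site with the closest tie to the p53 pathway. Cdkn1a, which encodes the p21 inhibitor of cyclin-dependent kinases, is the best known target of p53, and beside it lies Trp53cor1, the gene of the lncRNA called lincRNA-p21, also induced by p53. A WT summit at 29079072 on chromosome 17 lay inside Trp53cor1 (29057474 to 29079126), 54 bp from the end that faces Cdkn1a, and 11.9 kb outside Cdkn1a. It scored 12.8 (rank 533 of 1668) and was the only WT summit within 50 kb. The 3KR list had 3 summits within the same distance, at 29.2 kb on one side and at 16.3 and 29.4 kb on the other. The one at 16.3 kb, inside Cdkn1a, had the highest score of the 3 at 28.8 (rank 594 of 6753). Both lists therefore marked this locus, at different positions. Trp53cor1 is named after its values were seen.

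**Figure D1:**
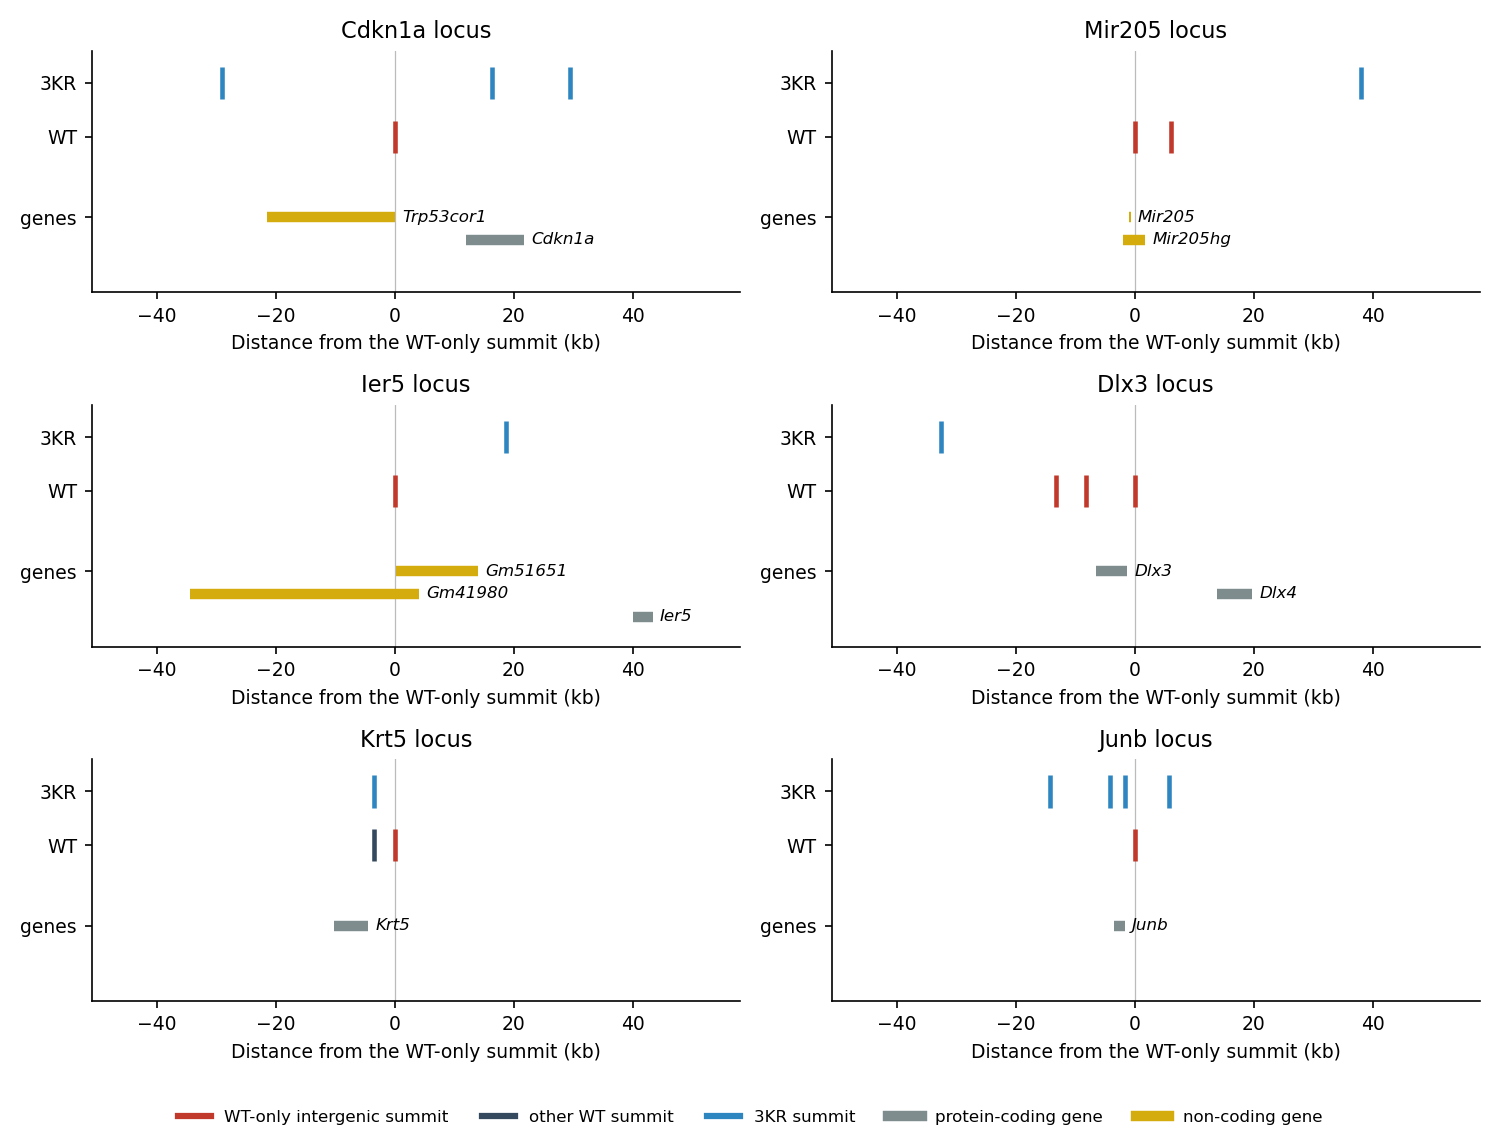
Summits within 50 kb of a WT-only intergenic site at 6 loci; the x axis is the distance in kb from the site nearest to the named gene, ticks are WT and 3KR summits, and bars are genes. At Cdkn1a the WT summit stands at the edge of Trp53cor1 and the nearest 3KR summit 16.3 kb away; at Dlx3 and Mir205 there are 3 and 2 WT-only sites with no 3KR summit within 19 kb of any of them.

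Of 69 known p53 targets in the gene table, 3 had a WT-only intergenic site within 50 kb of an end (4.35%), namely Cdkn1a, Ddit4 and Acad11. Over all 21887 protein-coding genes the share was 2.24% (490 genes). Ddit4 encodes an inhibitor of mTOR signalling. Its site, at 59911261 on chromosome 10, was 38.4 kb away, with Dnajb12 nearer at 12.0 kb, and scored 14.2. Within 50 kb stood 4 3KR summits, the nearest at 9.79 kb, and 1 other WT summit, shared with 3KR, which scored 5.22 at 11.5 kb. Acad11 encodes an acyl-CoA dehydrogenase of fatty acid breakdown. Its site, 2.67 kb from the gene on chromosome 9, scored 4.87, among the lowest of the list (rank 1535). Stronger WT summits stood on either side of it, at distances of 44.4 and 24.9 kb with scores of 18.0 and 17.6, and both of those were shared with 3KR. A further WT summit, 43.0 kb away, scored 9.29 and was not shared. At Acad11 the WT-only site was thus the lowest scored of 4 WT summits within 50 kb.

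The microRNA gene Mir205 had 2 WT-only sites. miR-205 is abundant in basal keratinocytes and other stratified epithelia and is made from the transcript of Mir205hg. One summit, at 193508431 on chromosome 1, lay inside Mir205hg and 901 bp from the hairpin, with a score of 7.84. The other, at 193514555, lay 7.03 kb from the hairpin with a score of 6.99. The nearest 3KR summit was 31.9 kb from the second and 38.1 kb from the first, with a score of 8.10. Mir205 was the only microRNA gene within 1 kb of a WT-only intergenic site, and 5 others lay within 10 kb (Mir101c, Mir6516, Mir3965, Mir8096 and Mir7080). Mir101c, at 1.46 kb, lay beside the last site of the group at the start of chromosome 9 described further on. All 6 are named after their values were seen. The mature products of Mir205 are shown because the gene had 2 WT-only sites within 10 kb and no 3KR summit within 30 kb of either, with the seed (bases 2 to 8) in capitals. They come from opposite arms of the hairpin and have different seeds.
mmu-miR-205-5p: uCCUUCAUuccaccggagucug
mmu-miR-205-3p: gAUUUCAGuggagugaagcuca

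Regulators of epidermal fate were among the neighbours of WT-only sites, and Dlx3 was nearest to a group of 3. Dlx3, a homeobox gene of epidermal and hair follicle differentiation, had 3 sites within 13.3 kb on chromosome 11, at 95113347, 95118317 and 95126597. Their scores were 9.06, 9.09 and 5.60, and the third lay 1.30 kb from the gene. No 3KR summit and no other WT summit stood within 10 kb of the group. The nearest 3KR summit was 19.3 kb from the group, on the side of Itga3. The first site of the group was 36.5 kb from Itga3, which encodes an integrin of basal cells. Itga3 itself held a shared summit, 43.0 kb from that site. The WT summit there, at 95070358, scored 9.11, and its 3KR partner, at 95070400, scored 15.8.

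The grainyhead-like genes encode transcription factors of the epithelial barrier. Near Grhl2, the site at 37198192 on chromosome 15 was the 7th highest scored of all 398, at 26.2 (rank 167 of the WT list), inside the lncRNA gene Gm41303 and 34.6 kb from Grhl2. A second site 1.42 kb away scored 7.68, and the nearest 3KR summit to the first was 83.7 kb away. Near Grhl3 a site scored 14.5 at 24.2 kb from the gene, and 3KR summits lay 22.2 and 24.6 kb from it, one of them inside Grhl3. The 3KR summit 83.7 kb from the Grhl2 site lay inside Grhl2, at 37281868. Both genes thus carried a 3KR summit within the gene as well as a WT-only site outside it. Inside Grhl2 there was also a WT summit with no 3KR partner, at 37233297 with a score of 12.9.

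Krt5, the keratin gene that defines basal cells, had a WT-only site of score 4.56 at 4.46 kb from the gene on chromosome 15. It stood 3.50 kb from a WT summit of score 15.3 that was shared with 3KR. In the lists for this tissue, 2 of 20 basal genes (Krt5 and Itga3) and 1 of 20 differentiation genes (Grhl3) had a WT-only intergenic site within 50 kb, beside 2.24% of all protein-coding genes. Counts of 1 and 2 genes show no more than that these genes have such a site. Other epidermal genes with such sites were named after their values were seen. Hopx, a homeodomain gene of hair follicle stem cells, had 2 sites, 42.1 and 43.2 kb away. A 3KR summit also lay inside Hopx, and a shared summit stood 21.1 kb from the first site. Bnc1, the zinc finger gene of basonuclin 1 in basal keratinocytes, had 2 sites, 42.0 and 55.1 kb away, with scores of 4.99 and 8.22. Nearer to Bnc1 stood a shared summit that scored 14.3 in the WT list, with its 3KR partner 3.9 kb from the gene. Sdr9c7, a dehydrogenase gene needed for the lipid barrier of the skin, had 1 WT-only site at 13.5 kb. It scored 7.99 and lies in the Gm40804 window printed above. A 3KR summit stood 12.5 kb from that site, and another, with a score of 8.10, lay inside Sdr9c7.

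Immediate early genes with a WT-only intergenic site within 50 kb were mostly beside low-scored sites. These genes are switched on within minutes of a stimulus, and many encode subunits of the AP-1 transcription factor. Of 20 such genes, 5 had a WT-only intergenic site within 50 kb, namely Junb at 1.67 kb, Jun at 16.4 kb, Egr1 at 36.5 kb, Ier5 at 40.1 kb and Fosl2 at 41.5 kb. Their scores were 5.57, 6.53, 6.63, 12.1 and 5.13 in that order, so 4 of the 5 stood below the median of the WT list, 9.42. The share of 25.0% stood above the 2.24% of all protein-coding genes, and the difference was not tested. It rested on the low-scored sites and the distance: in the upper 50% of the WT list 1 of these 20 genes remained, against 2 of 69 p53 targets, and within 10 kb 1 remained, as in the p53 and basal lists. By nearest protein-coding gene 3 of the 20 remained. The Egr1 site was nearest to Etf1, at 1.36 kb, and the Fosl2 site to Plb1. At Junb, Fosl2, Egr1 and Ier5 a 3KR summit lay nearer to the gene than the WT-only site did. It was 0.062, 0.905, 1.76 and 8.44 kb from the gene's end in that order. At Jun the nearest 3KR summit was 24.35 kb from the gene, farther than the WT-only site. The sites near Junb, Fosl2 and Jun had 3KR summits within 10 kb. At Fosl2 one stood 7.23 kb from the site with a score of 23.9. At Junb 4 stood within 50 kb, the nearest 1.61 kb from the WT-only site, and at Jun one 32.4 kb away scored 50.03 (rank 196 of 6753).

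Markers of other cells that a sort of basal keratinocytes might carry gave counts too small to set against the 2.24% of all genes. Of 10 immune genes 1 had a site within 50 kb. It was Cd74, the invariant chain of antigen presentation, at 15.4 kb from a site nearer to Rps14 (9.86 kb). No gene had a site within 50 kb among 10 melanocyte, 12 fibroblast, 20 housekeeping or 30 neuronal adhesion genes. Over all 9 lists, 12 of 210 genes in the table had a site within 50 kb (5.71%). A ChIP-seq summit near a marker does not measure whether the gene is expressed.

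**Figure D2:**
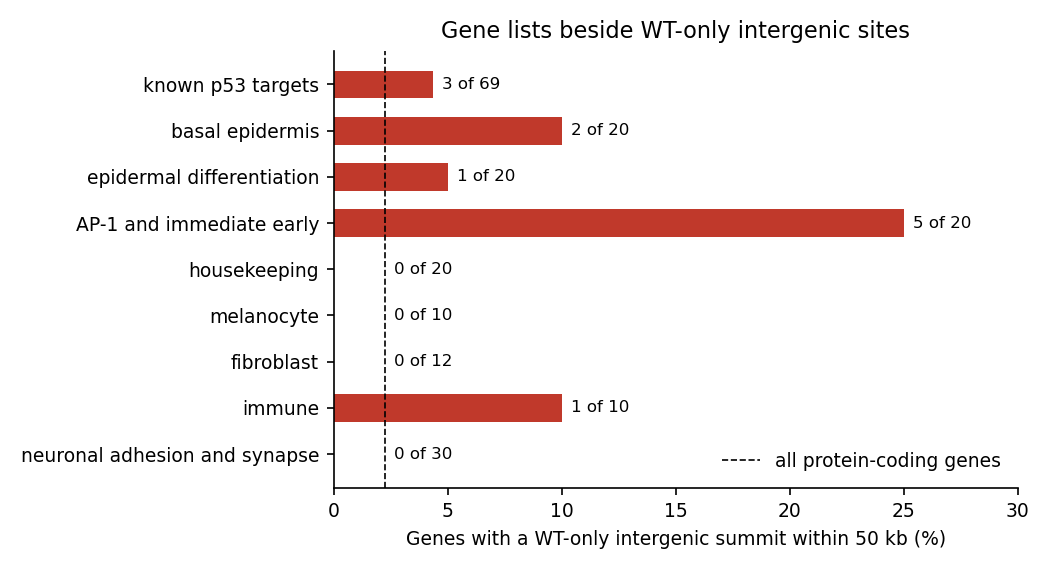
Share of genes of each list with a WT-only intergenic summit within 50 kb of an end, in percent, with the counts beside the bars and the share over all protein-coding genes (2.24%) as a dashed line. Immediate early genes stand highest at 5 of 20, and 4 lists have no such gene.

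The genes nearest to the highest scored WT-only intergenic sites had varied functions. The top site, with a score of 125 (rank 21 of the WT list), was 196 kb from Chl1, a neural cell adhesion gene, at 103314651 on chromosome 6. It was followed by a site with a score of 70.9 at 53.1 kb from Frmd4a, a gene of a cell polarity scaffold, and by one with a score of 44.3 at 1.12 kb from Gm42048, a predicted gene. Of 2 sites near the zinc finger gene Zfp825, the first was the 4th highest and the second the 8th. They scored 31.7 and 26.2 and stood 388 bp apart with a 3KR summit 411 bp from the second. Those lay among 3 other WT summits, all shared with 3KR, within 1.27 kb of the first. Sites near Zfp326, a zinc finger gene, and Duxbl1, a double homeobox gene, scored 30.8 and 30.6.

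Of the remaining members of the 15 highest, the site near Vmn1r238, a pheromone receptor gene, scored 26.1 at position 3004855 of chromosome 18 and had a 3KR summit 971 bp away. Sites near Adgrl3, an adhesion receptor gene, Asxl2, Sptssa, Marcks, Gm5294 and Arhgap32 scored 26.1, 25.5, 25.1, 23.8, 23.5 and 22.5. The one near Adgrl3 was 518 kb from the gene, and the nearest 3KR summit was 3191 kb away. Of the 15 sites, 12 had no 3KR summit within 50 kb. The 3 that did had one within 1 kb. Over all 398 sites, 55.3% had a 3KR summit within 50 kb.

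Scores of these sites were low as a group, but a tail reached high. The median was 7.93 (95% order-statistic interval 7.67 to 8.54), with quartiles of 6.01 and 11.4 and a range from 3.04 to 125. WT-only sites in or at genes had a median of 7.59 and a highest score of 26.8. Shared intergenic sites had a median of 12.6 in the WT list, and shared sites in or at genes 10.8. Scores over 20 belonged to 25 of 398 WT-only intergenic sites (6.28%), to 8 of 378 WT-only sites in or at genes (2.12%) and to 132 of 402 shared intergenic sites (32.8%). A score decides whether a summit is listed, so it is tied to the rule, and these values are a description.

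**Figure D3:**
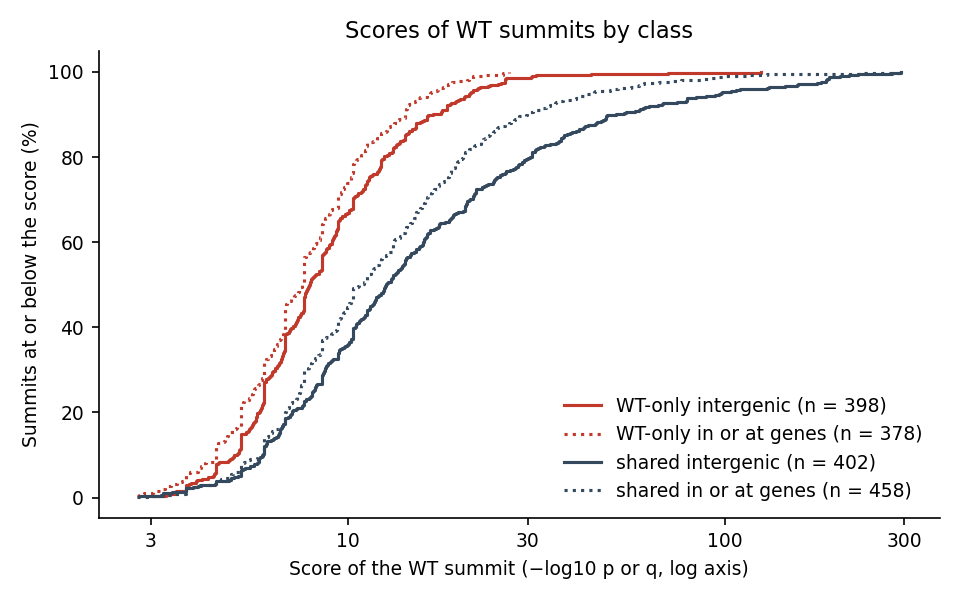
Cumulative share of WT summits (percent) by score on a log axis, for the 4 classes of WT summits. The WT-only intergenic curve runs close to that of WT-only sites in or at genes up to its median of 7.93 and has a longer upper tail, which ends at 125, while both shared curves lie to the right.

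Across the score range, the share of intergenic WT summits without a 3KR partner was 66.5% in the lowest quartile of the list (127 of 191), 64.7% and 48.7% in the next ones, and 23.7% in the highest (53 of 224). Many scores recurred exactly. The value 6.01 was given to 16 of the 398 sites and to 53 of 1668 WT summits, 6.83 to 14 sites and 5.22 to 13. In all 162 of the 398 sites (40.7%) had the same score as another of them. Such ties leave the order of low-scored sites undefined, and the depth behind them is unknown.

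Distance to genes hardly set these sites apart from other intergenic summits. Their median distance to a protein-coding gene end was 32.2 kb (95% interval 24.4 to 37.7). Shared intergenic sites were at 31.5 kb (26.8 to 37.9) and 3KR-only intergenic sites at 29.0 kb (26.9 to 32.1). Within 10 kb of a gene lay 89 of 398 WT-only sites (22.4%), 90 of 402 shared sites (22.4%) and 513 of 2060 3KR-only sites (24.9%). Beyond 100 kb the shares were 24.6% (95% Wilson interval 20.6 to 29.1), 30.3% (26.1 to 35.01) and 22.0% (20.3 to 23.8). Among 311 WT-only sites whose nearest gene had a known strand, 175 lay on its upstream side (56.3%), against 55.03% of shared and 55.1% of 3KR-only sites.

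The sites farthest from genes were at 76664521 on chromosome 1, 703 kb from Epha4, an ephrin receptor gene, at 37820496 on chromosome 10, 682 kb from Marcks, and at 46435804 on chromosome 5, 578 kb from Lcorl. Their scores were 6.21, 23.8 and 14.2. All intervals given here cover counting error only.

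**Figure D4:**
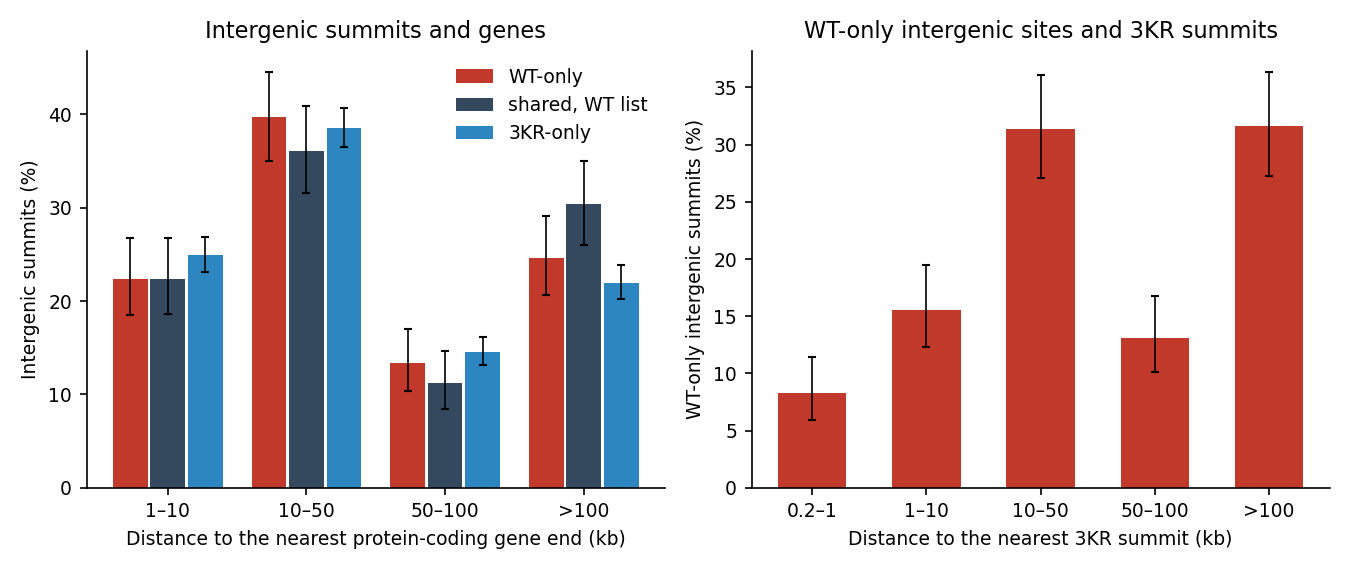
Left, share of intergenic summits (percent) by distance in kb to the nearest protein-coding gene end, for WT-only, shared and 3KR-only sites; right, share of WT-only intergenic sites by distance in kb to the nearest 3KR summit. Bars start at 0 and whiskers are 95% Wilson intervals; on the left the WT-only bars have intervals that overlap those of both other classes in each distance class, while beyond 100 kb shared sites (30.3%) stand above 3KR-only sites (22.0%), and on the right 31.7% of the sites have no 3KR summit within 100 kb.

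Non-coding genes covered 104 of the 398 sites (26.1%, 95% Wilson interval 22.1 to 30.7), of which 88 were inside a lncRNA gene and 12 inside a pseudogene, with sites counted in each type that covered them. The share was 20.4% of shared (16.7 to 24.6) and 22.2% of 3KR-only intergenic sites (20.4 to 24.0). These intervals overlap.

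The 398 sites had 336 different nearest protein-coding genes, 49 of which were nearest to 2 or more. A 3KR summit in the gene or within 10 kb of it was present for 123 of those 336 genes (36.6%, 31.6 to 41.9), against 50.5% of 319 genes nearest to a shared intergenic site and 23.4% of all protein-coding genes. A WT summit other than these sites was present for 48 of the 336 (14.3%), against 33.9% and 4.63%. For genes nearest to a shared site, both shares include that site and its 3KR partner where they lie within 10 kb. The WT-only sites were left out of their own share, so the gaps between these classes are partly set by definition. At Cdkn1a and Grhl3 a 3KR summit lay inside the gene, over 10 kb from the WT-only site. Over all 336 genes that distance was not counted.

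The nearest 3KR summit was within 1 kb of 33 sites (8.29%), 1 to 10 kb from 62 (15.6%), 10 to 50 kb from 125 (31.4%) and over 100 kb from 126 (31.7%). For 52 sites (13.1%) it was 50 to 100 kb away, and for 10 it was more than 1000 kb away. Just outside the 200 bp limit were sites near P4ha2 (217 bp, score 16.4), Scaf8 (229 bp, 11.3) and Snx6 (231 bp, 6.56). Just inside it, and so counted as shared, were sites near Klf5 (199 bp, 2.81), Ctnnbip1 (196 bp, 11.9) and Eapp (193 bp, 9.47). Of the 33 sites with a 3KR summit within 1 kb, 24 also had another WT summit within 1 kb (72.7%), against 16 of the other 365 (4.38%).

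Groups of 3 or more sites, each within 50 kb of the next, numbered 6 and held 24 of the 398 sites. At 4 of the 6, every site had a 3KR summit within 2.17 kb. The group near Rinl and Lgals4 also had a 3KR summit between its sites, but farther from them. The group with most members, 7 within 30.4 kb at the start of chromosome 9 and 298 kb from Alkbh8, had 16 shared WT summits and 17 3KR summits within it and 10 kb to either side. Another, of 5 sites within 4.21 kb on chromosome 17 and 103 kb from Esp38, covered Rn18s-rs5, a pseudogene of 18S ribosomal RNA. Its scores ran from 4.84 to 12.2, and a shared summit stood between its sites.

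At the third, on chromosome 1 and 24.5 kb from Col19a1, 3 sites within 1.92 kb lay in or beside the pseudogenes Gm10222 and Gm10925, with a 3KR summit of score 22.03 at 284 bp from the first. At the fourth, on chromosome 12 near Eapp and Snx6, each of the 3 sites was inside an snRNA gene (Gm25679, Gm26444 and Gm22317). Each had a 3KR summit at 251, 282 and 231 bp in turn, just past the limit. In these 4 groups, 18 sites in all, each site thus had a 3KR summit close by. The remaining groups were the one at Dlx3 and one of 3 sites near Rinl and Lgals4 on chromosome 7, with scores of 5.87 to 7.98. Between the sites near Rinl and Lgals4 stood a 3KR summit of score 18.9, at 8.88 kb from the closest.

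Chromosomes differed in how many intergenic WT summits lacked a 3KR partner. On chromosome 5 it was 33 of 46 (71.7%), and on chromosome 1 it was 36 of 52 (69.2%, 95% Wilson interval 55.7 to 80.1). Chromosome 6 had 6 of 18, although the top scored site is one of them, and chromosome 19 had 2 of 11. On X it was 1 of 10, and on Y 0 of 10, which allows a share of up to 30% (3 counts of 10, in place of a Wilson limit). Read against annotated length, chromosome 17 carried most WT-only sites, with 2.74 per 10 Mb, and X fewest among those with any, with 0.0586. On chromosome 17, 5 of the 26 sites belonged to the group near Esp38. Chromosome 9 came next with 2.41, and 7 of its 30 sites belonged to the group near Alkbh8. The differences between chromosomes were not tested.

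**Figure D5:**
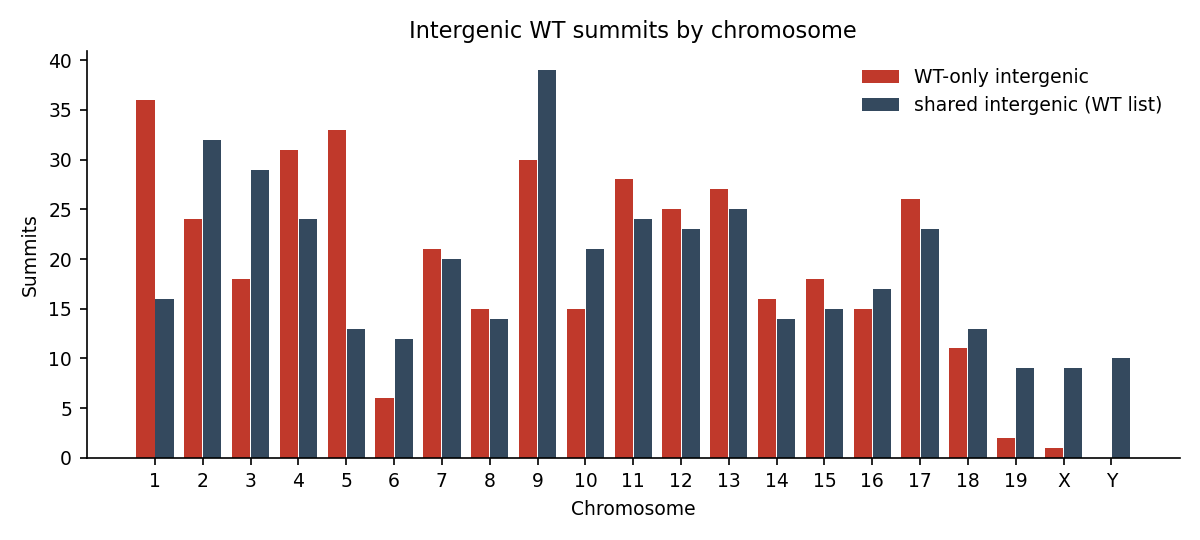
Number of intergenic WT summits on each chromosome, WT-only in red and shared with 3KR in dark blue. WT-only sites outnumber shared ones on chromosomes 1 (36 and 16) and 5 (33 and 13), and Y has 10 shared and no WT-only sites.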

How the data were processed

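The analysis started from 2 summit lists, 1 per genotype, that the authors deposited as combined from 3 libraries each. Per the submitters' processing notes, BWA, MACS2 and mm10 were used; no version, control library, threshold or way of combining is stated there. Every entry is 1 base. Its value was read as the −log10 p or q value that the authors' peak caller wrote; which of the 2 is not stated. Scores were used only within a list.

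Summits (1-based mm10) were compared by distance and placed against RefSeq genes of GRCm38.p6 (21887 protein-coding symbols) with Python 3.11.15 and pandas 2.3.3. "Any gene end" in the rule was read as that of a protein-coding gene. Strand and sequence came from RefSeq promoter windows, which hold none of chromosome 18. No tests were run: shares have 95% Wilson intervals and medians 95% order-statistic intervals. Each list is 1 combined sample, and its depth is unknown.

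Members and lists were chosen with earlier results of these data known. Named genes are those nearest to the 15 highest scored sites, list genes within 50 kb, and genes nearest to groups of 3 or more, to the 3 sites on either side of the 200 bp limit and to the 3 sites farthest from genes; others are marked as named after their values were seen. The steps were tested on simulated positions. Alternatives varied the sharing distance, scores, gene distance, biotypes and chromosomes.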

Additional observations from a re-analysis of the deposited data

How the results depend on the processing

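The count of 398 sites was 433, 380 and 365 when summits within 100, 500 or 1000 bp counted as shared, 572 with the 3KR list shortened by score to the WT length, and 279 when genes of any biotype counted, a reading of the rule that drops the sites inside Trp53cor1 and Mir205hg and the one at Gm51651. In the upper 50% of the WT list by score it was 147, with a median score of 13.2, 2.72% of sites within 10 kb of another, 19.7% with a 3KR summit over 200 bp to 10 kb away and 5 list genes in place of 12. The share of sites within 10 kb of another was 12.3%. It was 8.77% with sharing within 1000 bp, 8.96% with genes of any biotype, 7.49% without groups of 3 or more sites (chosen after seeing the data) and 20.6% at 50 kb. The share with a 3KR summit over 200 bp to 10 kb away was 23.9%. It was 17.0% with sharing within 1000 bp, 12.9% with the shortened 3KR list, and 55.3% at 50 kb. At over 5 kb from a gene end the median gene distance was 41.5 kb, since nearer sites are removed. The share inside non-coding genes was 0 with genes of any biotype, by construction. Within 10 kb, 3 list genes had a site. With 1 mismatch allowed (chosen after seeing the data), 9 of the 10 sites with a window had a half-site, and 70.03% of all windows held one. The other 61 values of these results under alternatives stayed within their interval or 1.5 times. No paired analysis was possible because each genotype has 1 combined list, and no library could be left out for the same reason. Unknown depth limits every statement about a missing 3KR summit.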
